A study of Rattus norvegicus with 16 samples.

Results

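The smooth muscle phenotype factors described here are 8 transcription regulators: Srf, Myocd, Klf4, Klf5, Mef2a, Mef2c, Elk1 and Ets1. They were found by symbol in a table of 32883 rat genes, with 1 Ensembl gene each, and their gene IDs were then looked up in lists of acetylated and of NAT10-bound RNA. Levels are in FPKM, a read density that corrects fragment counts for gene length and for a library size set by the authors. All 8 had a mean of at least 1 FPKM and so belonged to the 13450 genes tested.

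Primary rat aortic smooth muscle cells, grown in 20% serum, carried an adenovirus for 48 h. It encoded either a short hairpin RNA against Nat10 (knockdown, 3 input libraries) or a control (control, labelled wild type, 3 input libraries), so both groups were infected and no uninfected input is used here. Pulling down RNA that carries N4-acetylcytidine (ac4C), the cytidine mark that the NAT10 enzyme writes, gave 3 knockdown and 3 control peak lists. RNA bound to NAT10 in cells given no virus (NAT10 RIP) gave 3 further lists, and 1 non-IP sample of total RNA, labelled as a control of that assay, was not analysed here. The sources used here give neither strain and age of the rats nor the number of animals, and p-values measure the spread between these libraries, which may be technical.

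Of 7 defining smooth muscle markers, Des alone stayed at or under 1 FPKM in every library, and the highest was Tagln at a mean of 1165 FPKM in knockdown and 2824 FPKM in control cells. The summed level of the 7 ran from 671 to 3279 FPKM in knockdown libraries and from 4161 to 5679 FPKM in controls. The 5 fibroblast markers summed to 142 to 199 FPKM in knockdown libraries and to 178 to 278 FPKM in controls. The 4 endothelial markers found were all at or under 1 FPKM, with sums of at most 0.973 FPKM in knockdown and 0.724 FPKM in control libraries. Leukocyte markers summed to at most 11.1 FPKM in knockdown libraries and 5.36 FPKM in controls, neural markers to at most 2.81 and 4.69 FPKM in knockdown and control libraries, and adipocyte and mesothelial markers to at most 5.30 and 5.22 FPKM in knockdown and control libraries. Nat10 stood at 4.38, 3.68 and 4.58 FPKM in knockdown libraries 1 to 3, against 7.69, 9.22 and 9.95 FPKM in control libraries 1 to 3. Knockdown libraries held 6417941 to 7468528 fragments recovered from the FPKM values, and controls 8171176 to 12065991. Knockdown library 2 stood apart on the first principal component, at -70.0, against -10.3 to 30.9 for the other 5 libraries. Control libraries 2 and 3 were nearer to each other than any other pair (their fragments gave a chi-square whose median over genes was 0.759, where sampling alone gives 0.455) and may stem from one preparation, which the labels do not settle. They were counted as 2 of the 3 controls because their titles number them so. Their difference above sampling cannot show separate cultures, since such spread may be technical. If the 2 libraries are one preparation, the control means rest on 2 samples and the control SDs are too small. With the pair averaged, Myocd had a log2 change of -1.10 (unadjusted p = 0.0302, limma adjusted p = 0.802).

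SRF is a MADS-box protein that binds the CArG box, a DNA element found near genes of contraction and near growth-induced genes. Myocardin (Myocd) is its coactivator in muscle and drives contractile genes, whereas ELK1, an ETS protein of the ternary complex factor family, competes for SRF and links it to growth signals. KLF4 and KLF5 are zinc finger proteins tied to the loss of the contractile state in cultured and injured arteries, MEF2 proteins are MADS-box factors of muscle genes, and ETS1 is a growth-linked ETS factor.

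RefSeq promoter windows of assembly GRCr8, from 250 bases before to 50 bases after a start site, were matched for 5 of the 8 genes: Srf, Klf4, Klf5, Mef2a and Elk1. Srf and Mef2a are shown because each window holds a long element, rare among promoters, that its own protein family binds; capitals mark a CArG box in the first and a MEF2 site in the second.
Srf promoter, chr9:21923826-21924125, plus strand: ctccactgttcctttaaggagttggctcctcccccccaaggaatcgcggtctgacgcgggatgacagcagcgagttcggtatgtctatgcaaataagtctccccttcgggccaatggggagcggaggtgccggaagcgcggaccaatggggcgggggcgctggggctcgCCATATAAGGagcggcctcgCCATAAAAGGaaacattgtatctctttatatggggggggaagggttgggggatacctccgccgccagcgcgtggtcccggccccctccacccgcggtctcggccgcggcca
Mef2a promoter, chr1:130392113-130392412, minus strand: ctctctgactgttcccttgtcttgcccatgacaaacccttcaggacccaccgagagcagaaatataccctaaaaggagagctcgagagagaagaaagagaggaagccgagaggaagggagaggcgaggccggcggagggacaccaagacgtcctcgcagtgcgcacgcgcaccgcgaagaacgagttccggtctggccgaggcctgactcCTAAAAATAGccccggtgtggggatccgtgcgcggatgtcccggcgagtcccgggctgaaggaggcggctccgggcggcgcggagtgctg
The Srf window held 2 CArG boxes, which begin 81 and 61 bases before the start site, in a region with 5 copies of the ETS core GGAA on either strand. The CArG box was found in 1.64% of the 33469 promoters of this length, the MEF2 site in 0.565% and GGAA in 95.8%, both strands searched. The Mef2a site begins 40 bases before the start used by RefSeq, and the MEF2 element was added to the search after the sequences were seen. Neither element was in the windows of Klf4, Klf5 or Elk1, and the Elk1 window held 3 copies of GGAA, the short core that its own family binds.

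After Nat10 knockdown, Myocd, the coactivator, stood lowest relative to the controls among the 8, and Srf, the DNA-binding partner, was scattered. Myocd had 6.01, 2.57 and 7.35 FPKM in knockdown libraries 1 to 3, against 12.4, 11.3 and 10.9 FPKM in control libraries 1 to 3. Every knockdown library was below every control. The means were 5.31 ± 2.46 FPKM in knockdown and 11.6 ± 0.809 FPKM in control cells (SD, n = 3 each), a control mean 2.18 times the knockdown mean. The log2 change, on FPKM + 1, was -1.08 (SE 0.32). Its limma p was 0.0123 unadjusted and 0.305 after adjustment over all genes, so Myocd did not pass. It was the only member with an unadjusted p under 0.05, beside 5.53% of all tested genes higher and 6.95% lower at that level. Its change without knockdown library 2 was -0.71, and -0.66 without that library and control library 1 together. These libraries held 224, 107 and 258 fragments of Myocd in knockdown cells and 729, 451 and 459 in controls. In bulk RNA, fewer cells that express a gene and less of its RNA per cell cannot be told apart, and the summed smooth muscle markers above were lower with Myocd; their part in the result was not tested.

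Srf stood at 15.5, 10.2 and 32.4 FPKM in knockdown libraries 1 to 3, against 24.1, 25.2 and 24.9 FPKM in control libraries 1 to 3. Knockdown libraries 1 and 2 lay under all controls and knockdown library 3 above all of them, so the groups overlapped. The means were 19.4 ± 11.6 FPKM in knockdown and 24.7 ± 0.534 FPKM in control cells (SD, n = 3 each), and the difference on the log2 scale was -0.49 (SE 0.37, limma adjusted p = 0.628). Leaving out single knockdown libraries moved it between -0.13 without library 2 and -0.92 without library 3, where the unadjusted p was 0.00506 and the adjusted p 0.124.

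**Figure D1:**
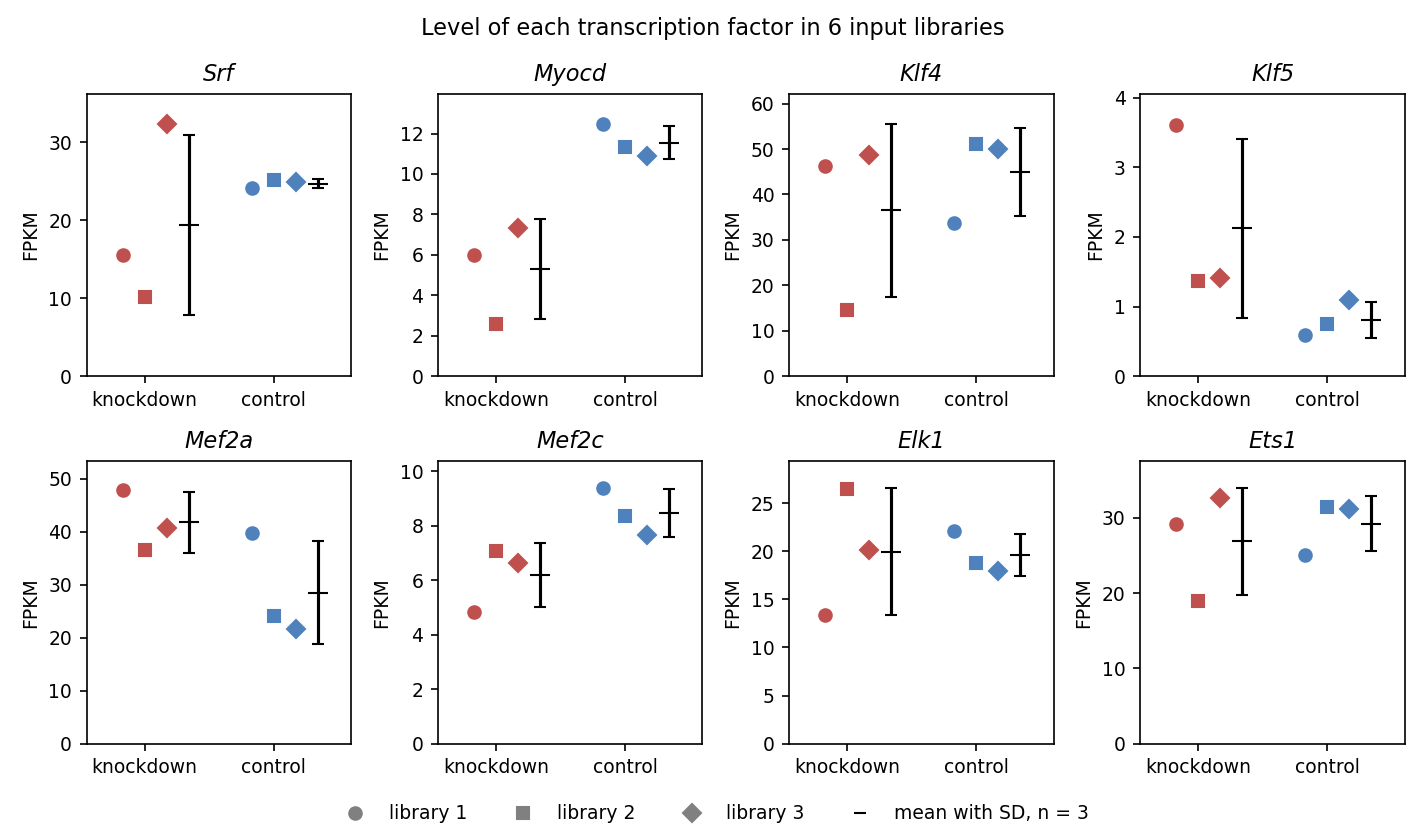
FPKM of each factor in the knockdown (red, left) and control (blue, right) input libraries, with 1 symbol shape per library number and the mean with SD beside each group (n = 3). Myocd and Mef2c have all knockdown libraries below all controls, Klf5 has all above, and the other 5 factors overlap.

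The Krüppel-like factors differed from each other in level and in spread. Klf4 was among the higher members, with 46.4, 14.5 and 48.6 FPKM in knockdown libraries 1 to 3 and 33.7, 51.0 and 50.1 FPKM in control libraries 1 to 3. Knockdown library 2 was the low one, and knockdown libraries 1 and 3 lay within the range of the controls. The log2 change was -0.45 (SE 0.46, limma adjusted p = 0.719) with all libraries. It was 0.10 without knockdown library 2, and -0.70 and -0.74 without knockdown libraries 1 and 3.

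Klf5 was the lowest member in both groups and the only one whose knockdown libraries all lay above the controls. It had 3.61, 1.37 and 1.40 FPKM in knockdown libraries 1 to 3, against 0.587, 0.751 and 1.10 FPKM in control libraries 1 to 3. Knockdown library 1 was well above the other two, and the gap between the highest control and the lowest knockdown library was narrow. These levels rest on 90, 38 and 33 fragments in knockdown and 23, 20 and 31 in control libraries. The means were 2.13 ± 1.28 FPKM in knockdown and 0.812 ± 0.261 FPKM in control cells (SD, n = 3 each), so the knockdown mean was 2.62 times the control mean. The log2 change on FPKM + 1, which understates the change of a gene this low, was 0.72 (SE 0.37, limma adjusted p = 0.467), and 1.29 by voom on the recovered fragments (unadjusted p = 0.0334, limma adjusted p = 0.365). It was 0.41 without knockdown library 1.

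The changes of the MEF2 genes had opposite signs, and neither passed. Mef2a had 47.9, 36.6 and 40.8 FPKM in knockdown libraries 1 to 3 and 39.7, 24.1 and 21.7 FPKM in control libraries 1 to 3. Control library 1 lay inside the knockdown range, and control libraries 2 and 3 lay below it. The means were 41.8 ± 5.74 FPKM in knockdown and 28.5 ± 9.79 FPKM in control cells (SD, n = 3 each), a log2 change of 0.58 (SE 0.25, unadjusted p = 0.0564, limma adjusted p = 0.413). Without control library 1 it was 0.83, at a limma p of 0.00598 before and 0.471 after adjustment. Over 17 alternatives the limma adjusted p ran from 0.0657 to 0.835.

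Mef2c was below Mef2a in every library. It stood at 4.85, 7.06 and 6.63 FPKM in knockdown libraries 1 to 3, against 9.38, 8.37 and 7.65 FPKM in control libraries 1 to 3. All knockdown libraries lay below all controls, with a narrow gap between knockdown library 2 and control library 3. The means were 6.18 ± 1.17 FPKM in knockdown and 8.47 ± 0.870 FPKM in control cells (SD, n = 3 each). On the log2 scale Mef2c differed by -0.41 (SE 0.20, unadjusted p = 0.0783, limma adjusted p = 0.452), and by -0.27 without knockdown library 1 (unadjusted p = 0.208, limma adjusted p = 0.666).

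The ETS members had the smallest changes. Elk1 stood at 13.3, 26.5 and 20.1 FPKM in knockdown libraries 1 to 3 and 22.1, 18.8 and 18.0 FPKM in control libraries 1 to 3. Its knockdown libraries fell on both sides of the controls, and the log2 change was -0.02 (SE 0.26, limma adjusted p = 0.979). With single libraries left out it ran from -0.24 without knockdown library 2 to 0.23 without knockdown library 1. Its sign changed in 4 of 17 alternatives, among them scaling to the total and to the fragment total. Ets1 stood at 29.2, 19.0 and 32.6 FPKM in knockdown libraries 1 to 3 and 25.0, 31.5 and 31.2 FPKM in control libraries 1 to 3. Knockdown library 2 was again the low one. The log2 change of Ets1 was -0.14 (SE 0.23, limma adjusted p = 0.830), and between -0.29 and 0.08 with single libraries left out, the highest without knockdown library 2.

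**Figure D2:**
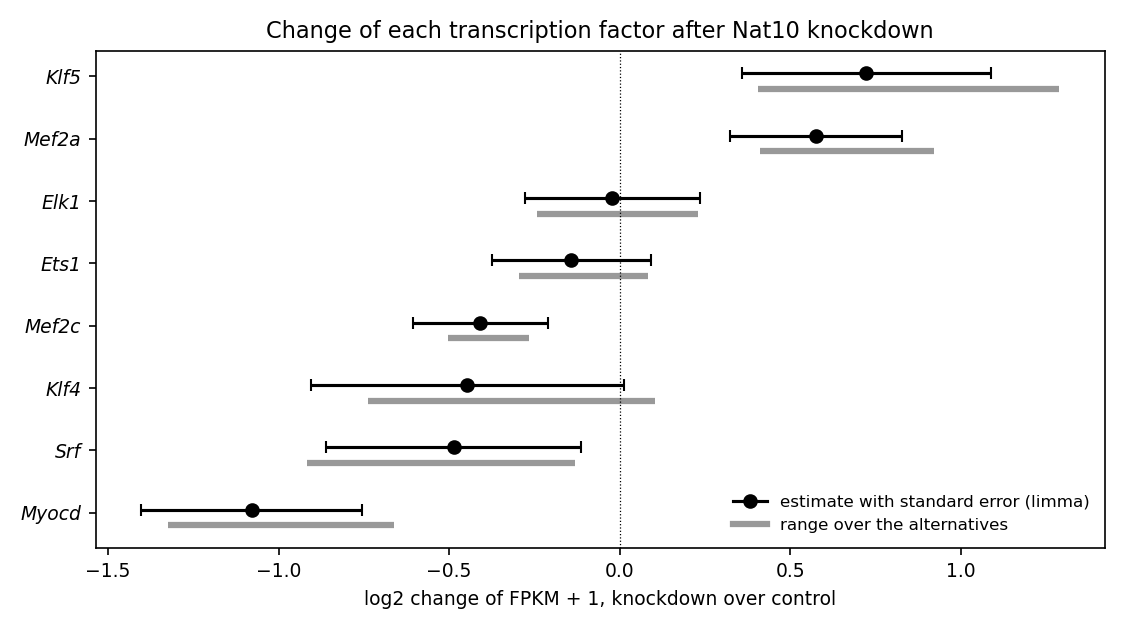
Log2 change of FPKM + 1 (knockdown over control) for the 8 factors, with the standard error from limma (black) and the range over the other fits, scalings and left-out libraries (grey; 17, and 16 for Klf5). Myocd ran from -1.32 to -0.66 and Klf5 from 0.41 to 1.29, whereas the ranges of Klf4, Ets1 and Elk1 crossed 0.

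Over the 8 factors, 0 were called higher and 0 lower by limma at an adjusted p under 0.05, beside 0.0% of all tested genes in either direction. The groups did not overlap for 1 factor higher (Klf5), beside 9.63% of all tested genes, and for 2 lower (Myocd and Mef2c), beside 10.9%, so for 3 of 8 in either direction, beside 20.6%. By the limma p instead, 1 of 8 (Myocd) had an unadjusted p under 0.05, beside 12.5% of all tested genes in either direction. The median log2 change of the 8 was -0.28, with 2 positive and 6 negative, against -0.01 over all tested genes. The library size behind the deposited FPKM was not the total of recovered fragments. Scaling to the fragment total moved the median of all genes to 0.12, and Myocd then had a change of -0.95, Mef2c -0.27 and Klf5 0.82.

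The order of the levels, per length, differed between the groups, with Klf5 last in both. In knockdown cells it ran Mef2a (41.8 FPKM), Klf4, Ets1, Elk1, Srf, Mef2c, Myocd and Klf5 (2.13 FPKM). In control cells it ran Klf4 (44.9 FPKM), Ets1, Mef2a, Srf, Elk1, Myocd, Mef2c and Klf5 (0.812 FPKM). In knockdown cells the libraries of neighbours in that order overlapped except between Srf and Mef2c. In control cells they overlapped for Ets1 with Mef2a and for Mef2a with Srf, and all other neighbours were apart. Myocd, above Mef2c in the controls, was below it in the knockdown means.

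**Figure D3:**
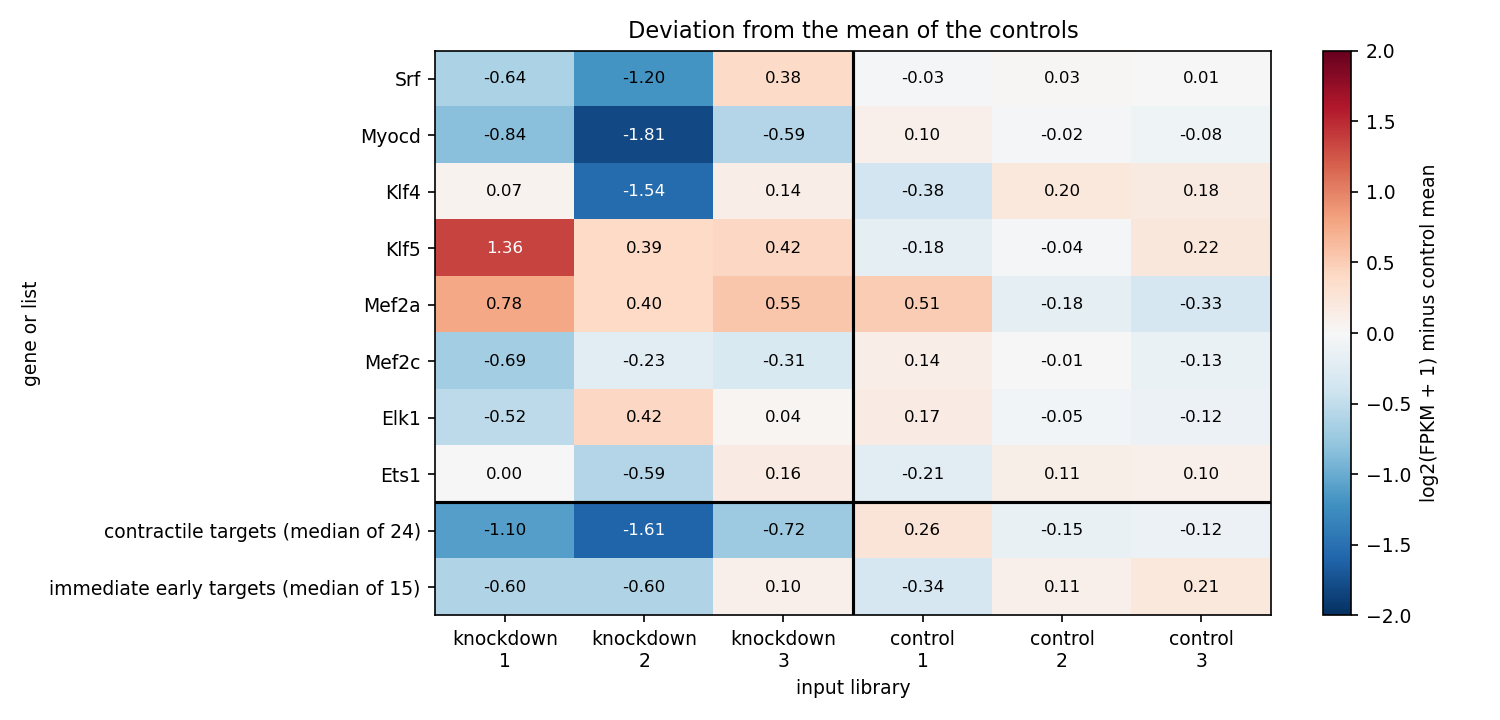
Deviation of log2(FPKM + 1) from the mean of the 3 controls in each input library, for the 8 factors and, below the line, the median of 24 contractile and 15 immediate early target genes. Knockdown library 2 holds the lowest values of Srf (-1.20), Myocd (-1.81) and Klf4 (-1.54), whereas Klf5 is highest in knockdown library 1 (1.36).

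The other genes of the pathway were described by 8 lists, in which 0 of the 122 tested genes passed in either direction. At an unadjusted p under 0.05 there were 3 on the higher side and 28 on the lower, beside 5.53% and 6.95% of all tested genes. Of 24 tested contractile CArG-box targets of SRF and myocardin, 18 were lower at that level and 0 higher. The change was negative in all 24, beside 6914 of the 13450 tested genes. The median of the 24 was -1.26, against -0.01 over all tested genes. The targets with the smallest p were Nexn (log2 -1.51, adjusted p = 0.155), Tpm2 (-2.03, adjusted p = 0.193) and Lmod1 (-1.75, adjusted p = 0.220), by limma. They encode an actin-binding protein, a tropomyosin and an actin nucleator. Relative to the control mean, the median target stood at -1.10, -1.61 and -0.72 in knockdown libraries 1 to 3, where Myocd stood at -0.84, -1.81 and -0.59 and Srf at -0.64, -1.20 and 0.38. Target and Myocd values were thus lowest in knockdown library 2 and nearest to the controls in knockdown library 3. Srf held the same order, as did the medians of the SRF coactivators, the other KLF and SP factors and the upstream genes. The order was thus not particular to Myocd and its targets. The medians of the ETS and remaining smooth muscle factor lists were also lowest in knockdown library 2 and highest in knockdown library 3. They were nearest to the controls in knockdown library 1. The immediate early and MEF2 lists had other orders. The list was drawn up with earlier results on contractile genes known, and without control library 1 the count of lower targets was 10. All 7 smooth muscle markers above belong to this list, so markers and targets are not separate sets. Csrp1, in this list, is also counted among the SRF coactivators.

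Targets of SRF with the ternary complex factors, which are induced within minutes of serum, were mixed. Of 15 tested immediate early genes, Atf3 was higher and 3 genes were lower at that unadjusted threshold, beside 5.53% and 6.95% of all tested genes. The median log2 change of the 15 was -0.51. Junb, an AP-1 subunit, stood at 89.1 ± 9.58 FPKM in knockdown and 128 ± 14.6 FPKM in control cells (SD, n = 3 each; limma adjusted p = 0.345). Fos, its partner in AP-1, stood at 10.8 ± 6.80 and 27.4 ± 12.1 FPKM in knockdown and control cells (limma adjusted p = 0.381). Atf3, a stress-induced factor, had a mean of 10.8 ± 8.30 FPKM in knockdown and 2.85 ± 0.271 FPKM in control cells (limma adjusted p = 0.345).

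Among 10 tested SRF coactivators and ternary complex factors, 3 were lower at an unadjusted p under 0.05, beside 6.95% of all tested genes. They were the LIM proteins Fhl1 (106 ± 36.2 FPKM in knockdown and 253 ± 65.0 FPKM in control cells) and Csrp1 (207 ± 32.3 and 327 ± 64.1 FPKM in knockdown and control cells), and Ccar1, a transcriptional coactivator (10.2 ± 1.02 and 13.9 ± 0.671 FPKM in knockdown and control cells; SD, n = 3 each). Their limma adjusted p-values were 0.266, 0.351 and 0.371. Mrtfa, the actin-sensing relative of myocardin, stood at 38.5 ± 6.30 FPKM in knockdown and 36.2 ± 3.44 FPKM in control cells, above Myocd in the means of both groups. The ternary complex factors Elk3 and Elk4 had log2 changes of -0.18 and 0.21, with overlapping groups (limma adjusted p = 0.803 and 0.657).

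Of the other KLF and SP factors, 0 of 13 had an unadjusted p under 0.05, beside 12.5% of all tested genes. The median log2 change of the 13 was -0.22. The 3 with the smallest p were Klf15 (log2 -0.66, limma adjusted p = 0.408), Klf2 (-1.28, 0.425) and Klf12 (-0.48, 0.460). Of the 5 tested other MEF2 factors and class IIa histone deacetylases, which bind MEF2, 0 had an unadjusted p under 0.05. Hdac7 (-0.28), Mef2d (0.20) and Hdac5 (-0.08) led them, at limma adjusted p-values of 0.634, 0.693 and 0.926, and Mef2d, at 59.0 ± 6.40 FPKM in knockdown and 51.7 ± 9.29 FPKM in control cells (SD, n = 3 each), stood above Mef2a and Mef2c in the means of both groups.

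Among 12 other ETS factors, Erg had an unadjusted p of 0.0400 (0.848 ± 0.892 FPKM in knockdown and 3.20 ± 1.59 FPKM in control cells; limma adjusted p = 0.384). Elf4 and Fli1 came next, with log2 changes of 0.35 and 0.67 (limma adjusted p = 0.427 and 0.475). Of 30 other factors of smooth muscle, 2 stood higher and 2 lower at that threshold, beside 5.53% and 6.95% of all tested genes. Yy1 (0.45), Foxo3 (0.43) and Zeb1 (-0.36) had the smallest p (limma adjusted p = 0.370, 0.371 and 0.389). Upstream of myocardin and its relatives, 2 of 16 genes were lower at that level, beside 6.95% of all tested genes. Pdgfrb, the receptor of platelet-derived growth factor BB and the third by p, had a log2 change of -0.63 (limma adjusted p = 0.460).

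**Figure D4:**
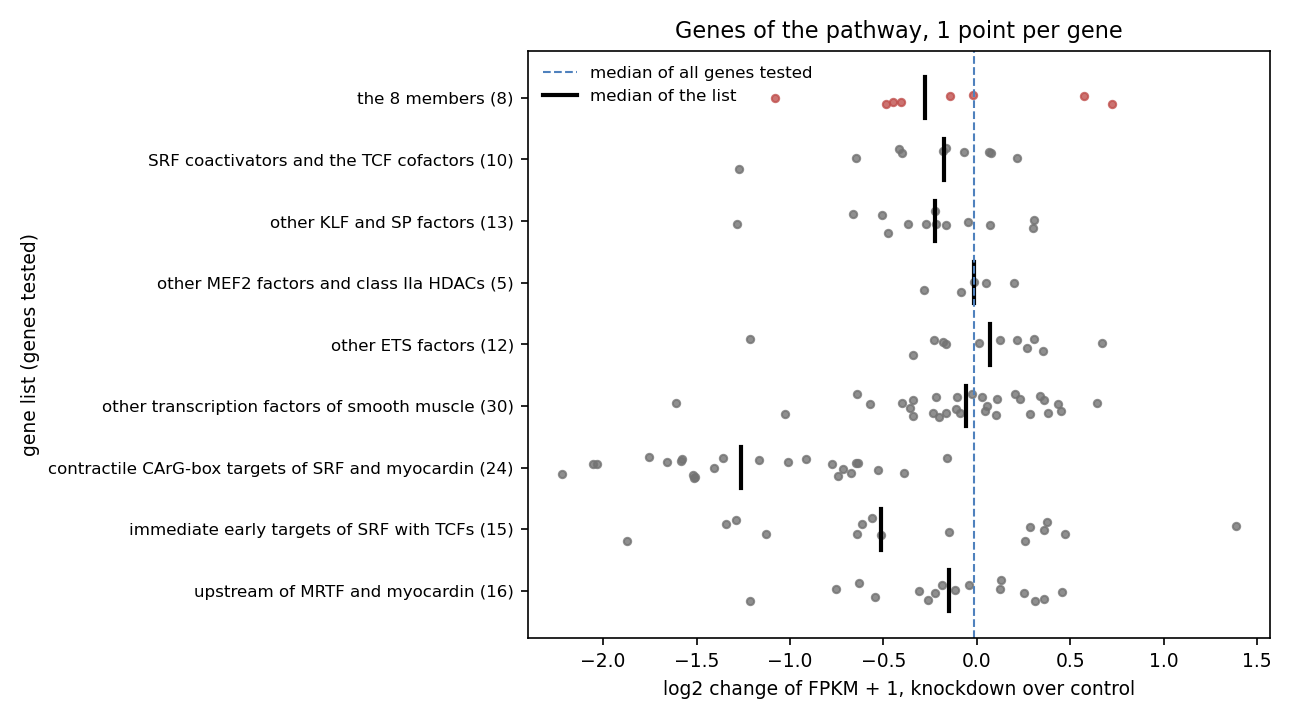
Log2 change (knockdown over control) of each tested gene, 1 point per gene, for the 8 factors (red) and the 8 lists of the pathway, with the list median (black bar) and the median of all tested genes (dashed). The contractile targets lie farthest left, at a median of -1.26, and the 8 factors have a median of -0.28.

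The genes whose levels over the 6 input libraries were most like Srf were Mical2, Osmr and Nr2f6, with Pearson r of 0.9996, 0.9988 and 0.997 on log2(FPKM + 1), out of 9325 genes compared. Mical2 had 47.2, 32.8 and 92.4 FPKM in knockdown and 69.7, 72.0 and 73.3 FPKM in control libraries. For Klf4 they were Apbb1ip, Plpp2 and Ash1l, with r of 0.999, 0.998 and 0.998. The comparison spans 6 points that share libraries and scaling, and r was above 0.9 for 470 genes with Srf and for 619 with Klf4.

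In the ac4C lists, 5 of the 8 factors had a row in at least 1 knockdown list, beside 33.0% of all tested genes, and 6 had a row in at least 1 control list, beside 59.0%. Most rows of control lists 1 and 2 carry 1 identical p-value, 0.045 in the first and 0.046 in the second. Every row of Klf5, Mef2c and Myocd in the control lists was of that kind. Without such rows 3 factors had a row in a control list (Klf4, Mef2a and Ets1), beside 34.0%, and the 5 in the knockdown lists (Klf4, Mef2a, Mef2c, Srf and Myocd) were untouched. On that footing 6 of 8 had a row in any of the 6 lists, beside 47.6%. Srf, Myocd and Mef2c had one in a knockdown list and in no control list, beside 13.7%, and Ets1 the converse, beside 14.7%. The lists give no enrichment and no read depth, so rows are described here without a test, and 3 lists against 3 cannot go below an exact permutation p of 0.1. Elk1 had no row in any of the 6 lists. The shares beside these counts were not matched for gene length or level, and the part of either was not tested. The 8 factors had a median length of 3756 nt.

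Klf4 was the factor with a row in all 3 control lists once the shared p-values were set aside, beside 4.29% of all tested genes, and also with all rows counted, beside 7.37%. The row was at the same place in each, chr5:72283313-72283493, with p-values of 6.3e-71, 3.1e-05 and 1.6e-09 in control lists 1 to 3. No knockdown row overlapped that place. A place listed in all 3 control lists and in 0 knockdown lists occurred in 0.424% of tested genes, and the converse, found for 0 of the 8, in 0.335%. Knockdown lists 1 and 3 had a row of Klf4 elsewhere in the gene, at chr5:72283882-72284061 (listed p-value 1.1e-05) and chr5:72283822-72284121 (listed p-value 1e-144). Control list 3 also had a row there, at chr5:72283852-72284031 (listed p-value 0.00023). Knockdown list 2 had no row of Klf4.

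Mef2c showed a row in all 3 knockdown lists, beside 4.72% of all tested genes, and a row with a p-value of its own in 0 control lists, a pattern of 0.297% of tested genes. Its rows lay at different places: near chr2:11821682-11821891 in knockdown list 1 (listed p-value 9.5e-05), in 3 places in knockdown list 2, and across exons between chr2:11674353 and 11747083 in knockdown list 3 (listed p-value 1e-05). Knockdown lists 2 and 3 shared 180 bases. With the rows at the shared p-value counted, Mef2c also had a row in control lists 1 and 2, at chr2:11658568-11674293, and the pattern, then held by 0.201% of tested genes, was gone for Mef2c. The p-values of the rows are the authors'.

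Mef2a had a row in knockdown list 1 (chr1:128209971-128210180, listed p-value 0.00076), in knockdown list 2 (chr1:128210299-128210627, with a p-value listed as 0) and in control list 3 (chr1:128210269-128210448, listed p-value 0.0029). The rows of knockdown list 2 and control list 3 overlapped by 150 bases. Ets1 had a row in control list 1 (chr8:33878308-33878487, listed p-value 2.5e-14) and at another place in control list 3 (chr8:33879296-33879445, listed p-value 0.0022), and none in the knockdown lists. Srf and Myocd each had 1 row in knockdown list 2 alone of the knockdown lists, with listed p-values of 0.001 for Srf and 0.032 for Myocd. The coordinates are those of the deposited lists, whose build is not stated; rn6 is the rat build named in the submitters' processing notes.

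**Figure D5:**
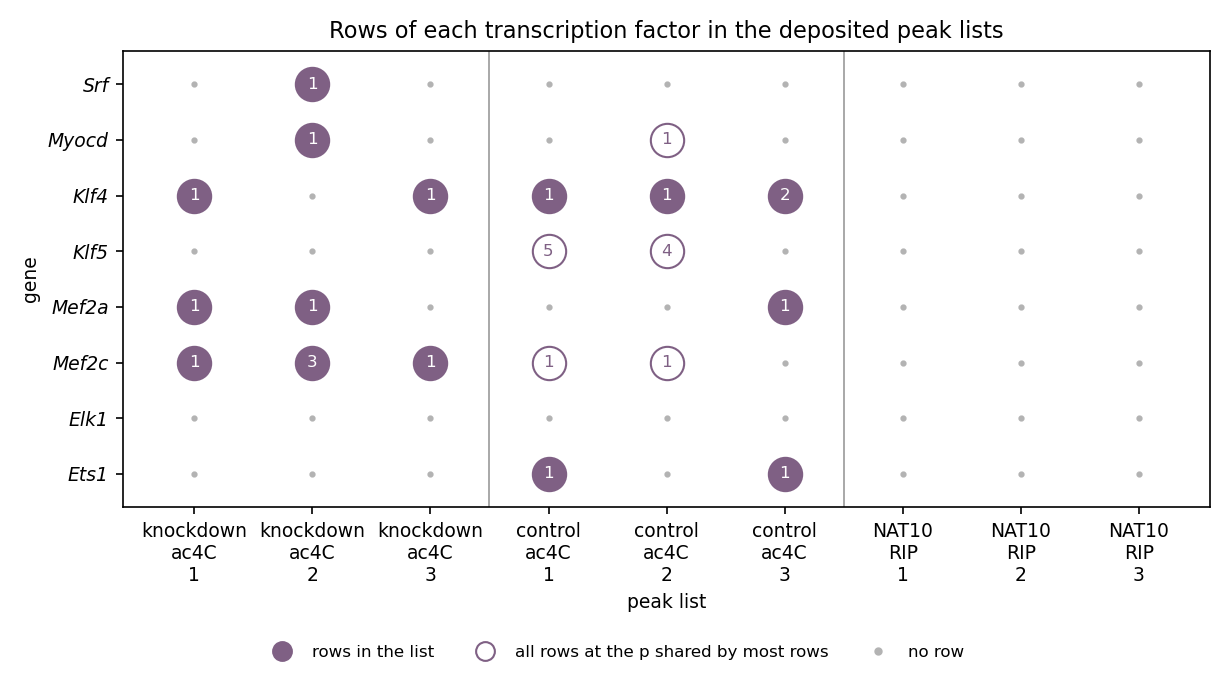
Number of rows of each factor (vertical) in the 3 knockdown and 3 control ac4C lists and the 3 NAT10 RIP lists (horizontal). Filled circles hold rows with their own p-values, open circles rows that all carry the p-value shared by most rows of that list, and dots mark no row; Klf4 is the factor with filled circles in all 3 control lists, and the NAT10 RIP columns are empty.

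None of the 8 factors had a peak in any of the 3 NAT10 RIP lists, which name 586, 563 and 548 genes. A peak in at least 1 list was found for 5.93% of all tested genes, in all 3 lists for 2.68%, and in at least 1 for 6.4% of the 4344 tested genes whose length and mean level lie within the range of the 8. At such shares, 0 of 8 is near the background. Genes with a NAT10 peak had a median length of 4508 nt and the other tested genes 1965 nt, and the 8 factors ran from 2366 to 6451 nt.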

How the data were processed

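The members and gene lists were chosen with earlier results of these data known. The authors deposited FPKM per gene for 6 input libraries, ac4C peak lists with a p-value per row, and NAT10 RIP lists with a log2 enrichment, p-values and their −log10 values, 1 list per library, per the file headers. DESeq2, HOMER 4.10.4, featureCounts 1.6.3, cutadapt 2.5 and HISAT2 2.1.0 stand in the submitters' processing notes without roles. Which caller made which list, and whether the labelled non-IP total RNA sample, not analysed here, entered the RIP enrichment, the sources used here do not say.

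Groups came from the titles. The 13450 genes averaging 1 FPKM or more over the 6 libraries entered a limma 3.58.1 fit in R 4.3.3. It modelled log2(FPKM + 1) by group, moderated variances along their trend, and gave two-sided p-values, adjusted over all genes by Benjamini-Hochberg and called at 0.05. The test was tried on simulated data with known changes and independent errors, without an outlying library or a pair of near-alike controls. That trial cannot show how the test fares on these libraries. Whole fragments were recovered for 21401 of 21401 genes above 0 by a search over lengths from 20 to 130000 nt (relative tolerance 6e-08), and for 1 of 300 genes with altered decimals; they gave depth and a voom fit. Peak rows were matched by Ensembl gene ID, with 1 added to each start. Promoters are RefSeq's. No protein sequence was used. Named genes were the 8 members, Nat10, the 3 genes of each list with the smallest p, and the 3 genes most like Srf and Klf4 with a mean of at least 5 FPKM; the first 2 genes of the upstream list are not reported here. Of the listed symbols, Mrtfb, Mcl1, Cyr61 (an older name of Ccn1, which was found) and Pecam1 found no row by name.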

Additional observations from a re-analysis of the deposited data

How the results depend on the processing

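None of the 8 factors passed limma's adjusted threshold in any of 17 alternatives, and Myocd kept a negative change with an unadjusted p under 0.05 in all of them. Klf4 changed sign in 1 alternative, Ets1 in 2 and Elk1 in 4. Of all tested genes, 0 were called in either direction (744 and 935 genes, higher and lower, had an unadjusted p under 0.05). Library quality weights called 120 higher and 215 lower (1610 and 1910 unadjusted), with 2 factors higher, 2 lower and 18 listed genes higher at an unadjusted p under 0.05; Nat10 then passed (log2 -0.97, adjusted p = 0.0399). With control libraries 2 and 3 averaged the unadjusted counts were 331 higher and 485 lower, with 1 listed gene higher and 17 lower. Scaling to the fragment total, chosen after seeing the data, gave 1124 higher and 569 lower, 1 factor and 9 listed genes higher. Leaving out knockdown library 2 and control library 1 together, also chosen after seeing the data, gave 1 factor and 13 listed genes higher and 11 contractile targets lower. Factors higher numbered 1 with quantile normalization and 2 with voom. The cause of these shifts was not tested.

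Leaving out 1 library at a time gave 0 to 1 genes called higher and 0 to 1 lower, 356 to 1146 higher and 468 to 1431 lower at an unadjusted p under 0.05, 0 to 1 factors higher and 1 to 2 lower, 1 to 12 listed genes higher and 14 to 40 lower, and 10 to 20 contractile targets lower. Factors with an ac4C row in a list ran from 3 to 5 for knockdown and 5 to 6 for control. In the control lists, 3 factors had a row in at least 1 list and 2 in at least 2 lists without rows at the shared p-value, and 2 and 1 at a p of at most 0.001, against 6 and 4 with all rows.

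Libraries with the same number shared only a number: their deviations correlated at -0.211, -0.284 and 0.179, and knockdown libraries 1, 2 and 3 correlated best with control libraries 2, 1 and 2. With the replicate block 1 factor (Mef2a, unadjusted p = 0.0437) and 1 listed gene were higher at an unadjusted p under 0.05, against 0 and 3 without it. At that threshold it left 500 tested genes higher and 676 lower, 26 listed genes lower and 17 contractile targets lower, all within 1.5 times the counts without it, and 0 genes passed the adjusted threshold with or without it. The 20 to 90 fragments of Klf5 per library limit its precision.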

Other observations

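Ratios between members and further factors, all chosen after their values were seen, are given as values and support nothing. Mef2a over Mef2c was 9.88, 5.18 and 6.15 in knockdown libraries 1 to 3, against 4.24, 2.88 and 2.84 in control libraries 1 to 3. Klf4 over Klf5 was 12.9, 10.6 and 34.6 in knockdown libraries 1 to 3, against 57.4, 67.9 and 45.6 in control libraries 1 to 3. Srf over Myocd was 2.59, 3.96 and 4.40 in knockdown libraries 1 to 3, against 1.94, 2.22 and 2.29 in control libraries 1 to 3.

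Sox9, a chondrogenic factor that cultured smooth muscle cells can express, stood at 37.0 ± 32.3 FPKM in knockdown and 88.3 ± 27.6 FPKM in control cells (SD, n = 3 each), with overlapping groups and a log2 change of -1.61 (unadjusted p = 0.0490, limma adjusted p = 0.399). Meox2, a homeobox factor, stood at 1.09 ± 0.832 FPKM in knockdown and 3.34 ± 1.93 FPKM in control cells, with a log2 change of -1.03 (limma adjusted p = 0.460).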
